A study of Mus musculus with 5 samples.

Results

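The insulin-like growth factor (IGF) system was examined through 10 genes, the ligands Igf1 and Igf2, the receptors Igf1r and Igf2r, and the binding proteins Igfbp2 to Igfbp7. The members were taken by symbol from a table of 23857 listed genes, and all 10 were found. All 10 also reached 1 TPM (a transcript level scaled for gene length and to the same total in each library) in at least 2 libraries, and so were among the 19292 genes tested.

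The libraries were made from YFP-positive stromal cells of the oviduct (fallopian tube), sorted from young adult female mice, 1 mouse per library as the labels number them. The 2 control mice carried Pdgfra-Cre and the Rosa26-YFP (R26Y) reporter, genotype Pdgfra-Cre;R26Y, and the 3 knockout mice carried in addition floxed alleles of Esr1, genotype Pdgfra-Cre;Esr1(fl/fl);R26Y. The Cre recombinase and the reporter were thus shared by both groups, and the Cre acts where the Pdgfra promoter is or has been active, which in the oviduct marks mesenchymal cells. The comparison asks how the IGF genes of the stroma differ when Esr1, which encodes estrogen receptor alpha, is deleted there.

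IGF-I and IGF-II are small secreted proteins related to insulin that promote growth and survival of cells. Both signal through the IGF-I receptor, a tyrosine kinase, while the IGF-II receptor takes up IGF-II for breakdown in lysosomes. The binding proteins hold the ligands outside the cell, where they can prolong their life, keep them from the receptor or release them when cut by proteases. In the female tract, IGF-I from the stroma is a well-known mediator of estrogen action on the neighbouring epithelium.

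The groups were not separated by the level of the targeted gene. Esr1 had 83.3 and 77.6 TPM in control mice 2 and 3, against 28.9, 85.0 and 170 TPM in knockout mice 1, 2 and 3, so only knockout mouse 1 lay below both controls. Values per gene do not show whether the floxed sequence was missing, and "knockout" below stands for the label. Of 10 stromal markers, all were above 0 in every library. They summed to 25008 and 20182 TPM in the controls and to 17299, 13316 and 15466 TPM in knockout mice 1, 2 and 3. Of the 10, 5 lay below both controls in all 3 knockout libraries, against 21.9% of all tested genes. Pdgfra, a receptor of mesenchymal cells, was at 165 to 298 TPM with overlapping groups (a log2 fold change of 0.13, limma adjusted p 0.831). The 10 epithelial markers were also above 0 in every library. Their summed level was 3028 and 3328 TPM in the controls and 2156, 12058 and 13148 TPM in knockout mice 1, 2 and 3, largely through Ovgp1, the secretory oviductal glycoprotein. The 8 immune markers summed to 1955 and 2530 TPM in the controls and to 1490, 951 and 679 TPM in knockout mice 1, 2 and 3. In such bulk samples, fewer cells of a type and less RNA per cell cannot be told apart. The estimated depth was 48.4% to 82.9% of that of control mouse 2 in the other libraries, lowest in knockout mouse 1.

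Stretches of 250 bases before the RefSeq start (GRCm38.p6) are shown for 3 members that differ in role, since the study deletes a factor that binds DNA. Igf1 stands for the ligands, Igf1r and Igfbp6 are the receptor and the binding protein whose groups did not overlap and whose stretch held a core motif. Capitals mark GGTCA on either strand, the core that is present as a pair in the estrogen response element GGTCANNNTGACC. In Igf1 they also mark TGANTCA, a loose form of the AP-1 motif that allows any base at its centre. The usual motif has C or G there, and the match in Igf1 has A. The stretch of Igf1 is at chr10:87860861-87861110 (plus strand), Igf1r at chr7:67952007-67952256 (plus strand) and Igfbp6 at chr15:102143936-102144185 (plus strand). GENCODE M21 places the first base of these 3 genes elsewhere, as the gene positions below show.
Igf1: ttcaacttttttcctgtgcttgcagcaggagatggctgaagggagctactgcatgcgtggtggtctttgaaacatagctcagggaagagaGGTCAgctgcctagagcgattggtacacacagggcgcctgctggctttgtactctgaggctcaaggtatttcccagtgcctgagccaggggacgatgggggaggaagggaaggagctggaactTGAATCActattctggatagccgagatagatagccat
Igf1r: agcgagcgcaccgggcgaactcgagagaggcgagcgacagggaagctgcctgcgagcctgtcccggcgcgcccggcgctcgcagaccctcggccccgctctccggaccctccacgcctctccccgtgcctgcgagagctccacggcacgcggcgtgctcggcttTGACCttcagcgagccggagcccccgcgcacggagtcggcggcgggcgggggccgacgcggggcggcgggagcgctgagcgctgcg
Igfbp6: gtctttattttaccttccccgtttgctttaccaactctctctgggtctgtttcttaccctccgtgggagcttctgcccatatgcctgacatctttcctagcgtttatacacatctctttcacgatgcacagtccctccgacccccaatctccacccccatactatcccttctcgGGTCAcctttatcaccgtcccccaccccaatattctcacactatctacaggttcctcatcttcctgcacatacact

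All 10 members matched the promoter table, with 14 such stretches because Igf2 has 4 annotated starts and Igfbp2 has 2. The core GGTCA was present on either strand in 8 of the 14 stretches, from 7 of the 10 genes, while 35.2% of all 32851 stretches of the same length held it. The full element was in 0 of the 14 and in 0.0639% of all. The loose AP-1 form TGANTCA was in 2 of the 14, those of Igf1 and of 1 Igfbp2 start, and in 6.75% of all. No GGTCA was found in the stretches of Igfbp3, Igfbp4 and Igfbp5. The core lay 160 bases before the start in Igf1, 86 in Igf1r and 76 in Igfbp6. It did not overlap the TGANTCA match of Igf1, which lay 37 bases before the start. These matches describe the letters of the stretches and were not measured as binding.

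The sorted cells carried high levels of Igfbp3 to Igfbp7 transcripts, and in the controls lower levels of the ligands and receptors, while Igfbp2 was lowest. In knockout mouse 1, Igf1 at 645 TPM was above Igfbp5 at 526 TPM. In the controls the order of mean TPM was Igfbp7 at 1862 ± 196, Igfbp6 at 1020 ± 308, Igfbp5 at 867 ± 210, Igfbp3 at 781 ± 445 and Igfbp4 at 675 ± 65.2 (SD, n = 2). Below them came Igf1 at 212 ± 72.3, Igf2r at 93.3 ± 4.04, Igf1r at 45.7 ± 1.37, Igf2 at 19.3 ± 2.22 and Igfbp2 at 6.98 ± 1.67 TPM (SD, n = 2). The ranges of Igfbp6, Igfbp5, Igfbp3 and Igfbp4 overlapped from one to the next in the controls, and all other neighbours in this order were apart. In the knockout libraries Igfbp3 was in the second place at 1576 ± 757 TPM (SD, n = 3), next to Igfbp7 at 1798 ± 323 TPM (SD, n = 3), with overlapping ranges. By its mean over the 5 libraries, Igfbp7 was above 99.8% of all listed genes, Igf1 above 98.6% and Igfbp2 above 53.1%.

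**Figure D1:**
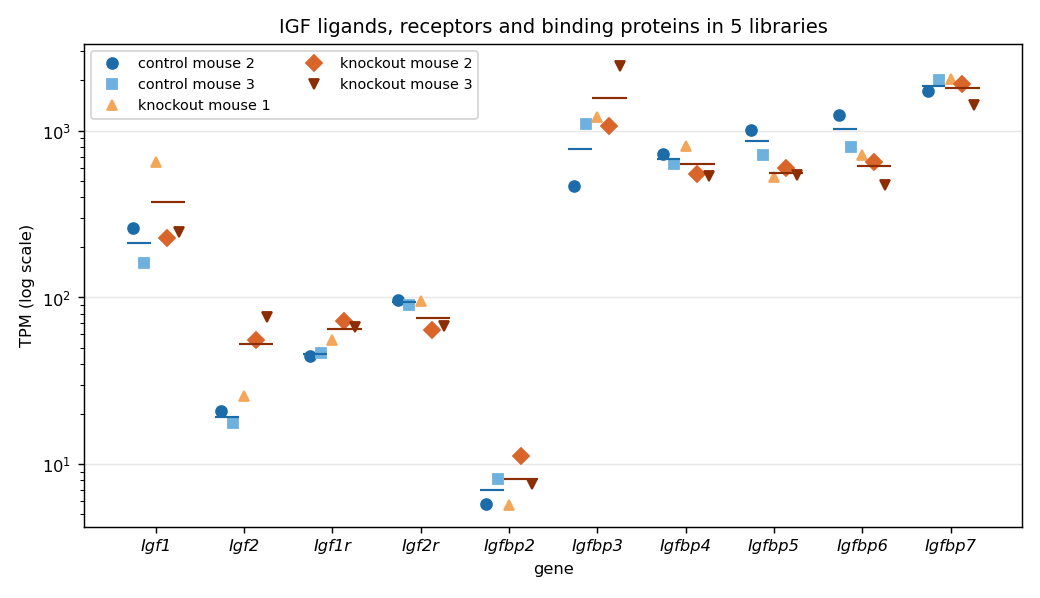
TPM of the 10 IGF genes (log axis) in each of the 5 libraries, with horizontal lines at the control mean (blue, n = 2) and the knockout mean (brown, n = 3). Igf2 and Igf1r lie above both controls in all 3 knockout libraries, and Igfbp5 and Igfbp6 below both.

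None of the 10 members passed an adjusted p of 0.05 (limma over all tested genes, Benjamini-Hochberg), as was so for nearly all genes: the rule called 0.0259% of those tested. At an unadjusted p under 0.05 there were 4 members, Igf2 and Igf1r on the higher side and Igfbp5 and Igfbp6 on the lower, against 13.6% of all tested genes. The same 4 were the members whose groups did not overlap. Over all tested genes 33.9% did not overlap, 11.9% on the higher and 21.9% on the lower side, so 2 and 2 of 10 members are close to the background. The median log2 fold change was 0.054 over the members and -0.022 over all tested genes, with 5 members above and 5 below 0. Fold changes are given throughout as log2(TPM + 1), knockout minus control. Those of the 10 members ran from -0.73 for Igfbp6 to 1.27 for Igf2.

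**Figure D2:**
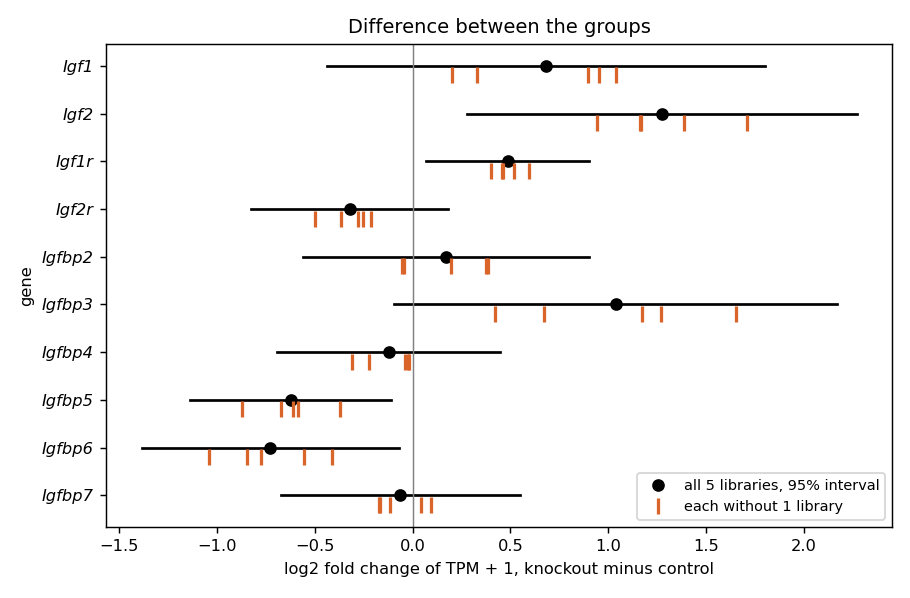
Log2 fold change of TPM + 1 (knockout minus control, x axis) of each IGF gene, with its 95% interval from the fit to all 5 libraries (black) and the values of the 5 fits that each left out 1 library (orange). The intervals of Igf2, Igf1r, Igfbp5 and Igfbp6 do not include 0 before adjustment, and Igfbp2 and Igfbp7 have values on both sides of 0.

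The ligands were described first. Igf1 (chr10:87858265-87937042, plus strand, GENCODE M21), which encodes IGF-I, had 263 and 161 TPM in control mice 2 and 3, against 645, 228 and 246 TPM in knockout mice 1, 2 and 3. Knockout mouse 1, the library with the lowest Esr1, was far above the other 4, and the values of knockout mice 2 and 3 lay between the controls. These values gave a log2 fold change of 0.68 with a standard error of 0.47 (limma fit, adjusted p 0.525), or 0.20 with knockout mouse 1 left out (adjusted p 0.584). It was 1.04 without control mouse 2 and 0.33 without control mouse 3. Immune cells can also make IGF-I. All 8 immune markers were above 0 throughout. In knockout mouse 1, where Igf1 was highest, 7 of 8 lay below both controls, as did 10397 of all 19292 tested genes. Cd3e, of the T cell receptor complex, was at 35.9 TPM there against 2.57 to 17.2 TPM in the other libraries. The part of immune cells in the Igf1 values was not tested.

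Igf2 (chr7:142650766-142666816, minus strand), which encodes IGF-II, is an imprinted gene expressed from the paternal copy and is most active before birth. It had 20.9 and 17.7 TPM in control mice 2 and 3, against 25.8, 55.7 and 76.4 TPM in knockout mice 1, 2 and 3. All 3 knockout libraries were above both controls, by little in mouse 1 and by more in mice 2 and 3. The difference came to 1.27 ± 0.42 on the log2 scale (estimate and standard error from limma, adjusted p 0.297, exact permutation p 0.2, where 0.1 is the smallest this design allows). When each library was dropped in turn, giving 5 fits, the difference ranged from 0.94 without knockout mouse 3 (limma, adjusted p 0.458) to 1.71 without knockout mouse 1 (limma, adjusted p 0.0140), and only the latter fit passed the threshold. That fit called 1524 of 19106 genes, or 7.98%, so a call there is much more frequent among all genes than in the comparison of all 5 libraries.

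H19, a non-coding RNA that is the imprinted neighbour of Igf2 on chromosome 7 (chr7:142575529-142578143, minus strand) and is expressed from the maternal copy, showed the same order of the knockout libraries. It had 13.6 and 18.6 TPM in control mice 2 and 3, against 22.3, 55.9 and 97.3 TPM in knockout mice 1, 2 and 3. All 3 knockout libraries were again above both controls, with a log2 fold change of 1.58 and a standard error of 0.55 (limma, adjusted p 0.316). The ratio of Igf2 to H19 TPM was 1.53 and 0.953 in the controls, against 1.15, 0.995 and 0.785 in knockout mice 1, 2 and 3, with overlapping groups. The summed epithelial markers were likewise high in knockout mice 2 and 3, where 9 of 10 lay above both controls in each. In knockout mouse 1 none of the 10 lay above both controls and 6 lay below both. Over all 19292 tested genes, 9164 and 7893 lay above both controls in knockout mice 2 and 3. In knockout mouse 1, 4020 lay above and 10397 below both. The part of epithelial RNA in the Igf2 and H19 values was not tested. Igf2os, an annotated antisense transcript that overlaps Igf2, was at 0.171 to 1.42 TPM, and the counting is not stated to use strand.

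**Figure D3:**
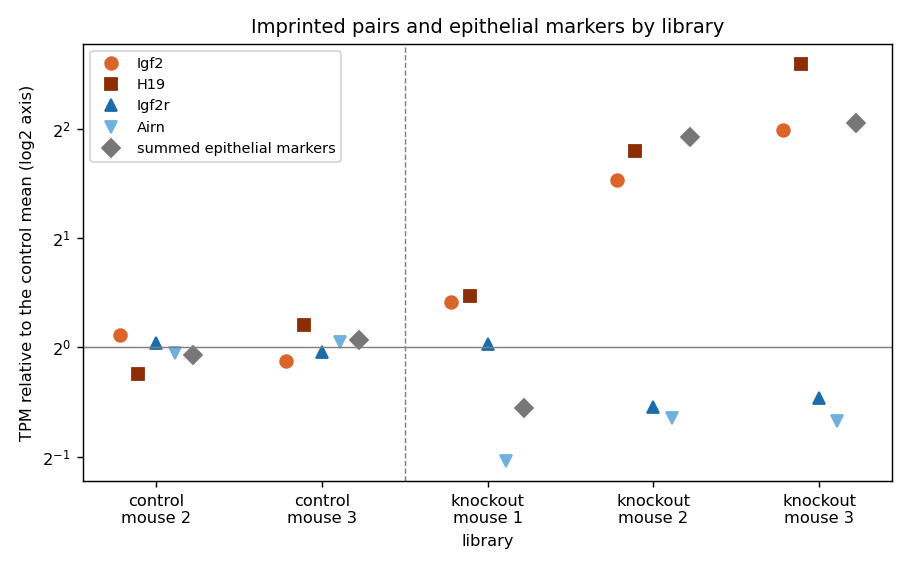
TPM relative to the control mean (log2 axis) of the imprinted pairs Igf2 with H19 and Igf2r with Airn, and of the summed epithelial markers, in each of the 5 libraries. Igf2 and H19 are highest in knockout mice 2 and 3, as is the epithelial sum, which in knockout mouse 1 lies below both controls.

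Of the summed Igf1 and Igf2 TPM, Igf2 took 7.36% and 9.95% in control mice 2 and 3, against 3.84%, 19.7% and 23.7% in knockout mice 1, 2 and 3. Igf1 was thus the main ligand transcript in every library, at 76.3% to 96.2% of the sum, and its share was highest in knockout mouse 1.

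Among the receptors, Igf1r (chr7:67952827-68233668, plus strand), the signalling receptor of both ligands, had 44.8 and 46.7 TPM in control mice 2 and 3, against 55.4, 72.5 and 66.7 TPM in knockout mice 1, 2 and 3. The controls were close to each other and all 3 knockout libraries were above them. These values gave a log2 fold change of 0.49 with a standard error of 0.18 (limma fit, adjusted p 0.327, exact permutation p 0.2). With 1 library left out, it ranged from 0.40 without knockout mouse 2 (limma, adjusted p 0.483) to 0.59 without knockout mouse 1 (limma, adjusted p 0.0406). Of these 5 fits, only the one without knockout mouse 1, which called 7.98% of all genes, passed the threshold for Igf1r. As with Igf2, knockout mouse 1 was nearest to the controls, and the epithelial sum was high in the other 2 knockout libraries, its part in the Igf1r values not tested.

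Igf2r (chr17:12682406-12769664, minus strand), the receptor that clears IGF-II and also carries lysosomal enzymes, is imprinted as well, and in the mouse its maternal copy is the active one. It had 96.2 and 90.5 TPM in control mice 2 and 3, against 95.4, 63.7 and 67.7 TPM in knockout mice 1, 2 and 3. Knockout mouse 1 lay between the controls and mice 2 and 3 below them. The difference came to -0.32 ± 0.21 on the log2 scale (estimate and standard error from limma, adjusted p 0.509), and it was -0.50 without knockout mouse 1 and -0.21 without knockout mouse 2. Airn, the antisense RNA that silences the paternal copy of Igf2r, had 22.2 and 23.9 TPM in the controls, against 11.2, 14.7 and 14.5 TPM in knockout mice 1, 2 and 3. All 3 knockout libraries were below both controls, with a log2 fold change of -0.74 and a standard error of 0.20 (limma, adjusted p 0.219). The 2 genes overlap (Airn is at chr17:12741311-12860136, plus strand), so without strand their reads cannot be told apart where they do.

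The receptors thus differed in balance between libraries. The ratio of Igf1r to Igf2r TPM was 0.466 and 0.516 in control mice 2 and 3, against 0.581, 1.14 and 0.985 in knockout mice 1, 2 and 3. It was above both controls in all 3 knockout libraries, and in mice 2 and 3 it was near 1.

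The binding proteins that differed most between the groups were Igfbp3, Igfbp5 and Igfbp6. Igfbp6 (chr15:102144362-102149511, plus strand), which prefers IGF-II over IGF-I, had 1238 and 802 TPM in control mice 2 and 3, against 711, 646 and 475 TPM in knockout mice 1, 2 and 3. All 3 knockout libraries were below both controls, although knockout mouse 1 was nearer to control mouse 3 than the controls were to each other. These values gave a log2 fold change of -0.73 with a standard error of 0.28 (limma fit, adjusted p 0.343, exact permutation p 0.1, the smallest possible). It was -0.41 without control mouse 2.

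Igfbp5 (chr1:72857932-72874884, minus strand), which binds extracellular matrix as well as the ligands, had 1015 and 718 TPM in control mice 2 and 3, against 526, 594 and 545 TPM in knockout mice 1, 2 and 3. The knockout libraries were close to one another and all below both controls. The difference came to -0.62 ± 0.22 on the log2 scale (estimate and standard error from limma, adjusted p 0.316, permutation p 0.1 by the exact test), and it was -0.37 without control mouse 2. Collagen and other matrix transcripts among the stromal markers were on the same side. Of the 10 stromal markers, 5 were below both controls in all 3 knockout libraries, among them Col1a1 and Lum, and 1, Pi16, was above both in all 3 (these 3 were named after their values were seen). Over all tested genes, 21.9% lay below and 11.9% above. The part of a shift in stromal markers in the lower Igfbp5 and Igfbp6 values was not tested.

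Igfbp3 (chr11:7206086-7213923, minus strand), the main carrier of IGFs in blood, had 466 and 1095 TPM in control mice 2 and 3, against 1215, 1066 and 2445 TPM in knockout mice 1, 2 and 3. Control mouse 2 was lowest and knockout mouse 3 highest, while the other 3 libraries were close together across the groups. These values gave a log2 fold change of 1.04 with a standard error of 0.48 (limma fit, adjusted p 0.393). It was 0.42 without control mouse 2, 1.65 without control mouse 3 and 0.67 without knockout mouse 3.

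The remaining binding proteins, like Igfbp3, had overlapping groups. Igfbp4 (chr11:99041244-99054392, plus strand), an inhibitor of IGF action that the protease PAPP-A cuts, had 721 and 629 TPM in the controls, against 804, 550 and 535 TPM in knockout mice 1, 2 and 3, with a log2 fold change of -0.12 (limma, 95% interval -0.69 to 0.45) that ranged from -0.31 to -0.018 over the fits without 1 library. Igfbp7 (chr5:77349240-77408041, minus strand), a matrix-associated relative that binds IGFs weakly, had 1724 and 2001 TPM in the controls, against 2050, 1911 and 1435 TPM in knockout mice 1, 2 and 3, with a log2 fold change of -0.063 (limma, 95% interval -0.67 to 0.55). Its sign turned without control mouse 3 (0.045) and without knockout mouse 3 (0.092). Igfbp7 was the most abundant member in 4 of 5 libraries, the exception being knockout mouse 3, where Igfbp3 was above it. Igfbp2 (chr1:72824503-72852474, plus strand), the neighbour of Igfbp5 and the least abundant member, had 5.80 and 8.16 TPM in the controls, against 5.71, 11.2 and 7.59 TPM in knockout mice 1, 2 and 3, with a log2 fold change of 0.17 (limma, 95% interval -0.56 to 0.90). Its sign turned without control mouse 2 (-0.043) and without knockout mouse 2 (-0.055). About 48.1 to 161 reads lay behind its values, far fewer than behind the other members.

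The total of binding protein transcripts varied little while its make-up varied more. The summed TPM of Igfbp2 to Igfbp7 was 5170 and 5253 in control mice 2 and 3, against 5311, 4777 and 5443 in knockout mice 1, 2 and 3. Igfbp3 made up 9.02% and 20.8% of it in the controls and 22.9%, 22.3% and 44.9% in knockout mice 1, 2 and 3. Igfbp6 made up 23.9% and 15.3% in the controls, against 13.4%, 13.5% and 8.73% in the knockout libraries. The share of Igfbp3 was thus above both controls and that of Igfbp6 below both in all 3 knockout libraries, with control mouse 3 near knockout mice 1 and 2. The ratio of summed binding protein to summed ligand TPM was 18.2 and 29.5 in the controls, against 7.91, 16.9 and 16.9 in knockout mice 1, 2 and 3, lowest where Igf1 was highest.

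**Figure D4:**
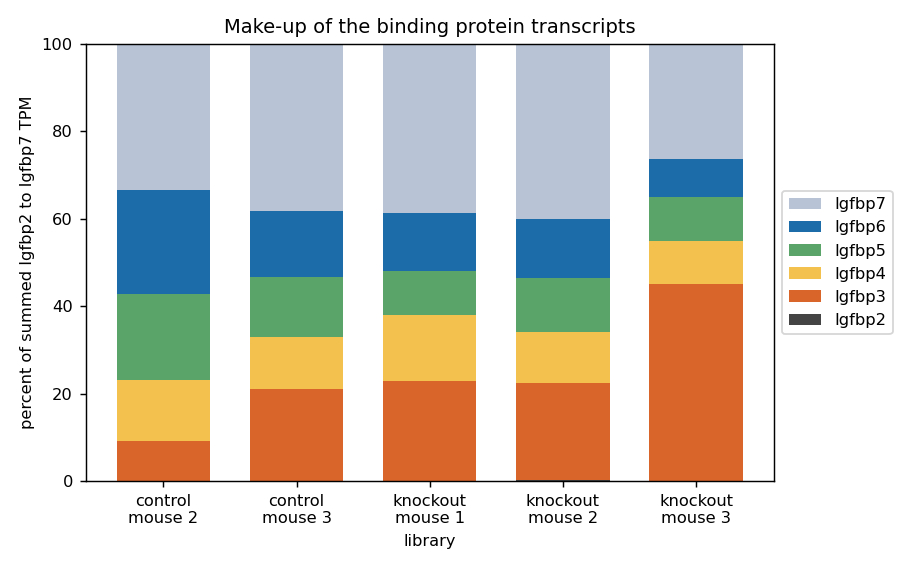
Percent of the summed Igfbp2 to Igfbp7 TPM taken by each gene, 1 bar per library. Igfbp3 takes 9.02% in control mouse 2 and 44.9% in knockout mouse 3, and between 20.8% and 22.9% in the other 3 libraries.

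Around the members, 48 other pathway genes in 5 lists were examined, of which 47 were tested and 0 passed an adjusted p of 0.05 in either direction (limma). At an unadjusted p under 0.05 there were 6, with 3 on each side, against 13.6% of all tested genes. Above both controls in all 3 knockout libraries lay 9, and below both 9, against 11.9% and 21.9% of all tested genes. The genes named are those at the ends of each list whose groups did not overlap. Of the 8 proteases and modulators of the binding proteins, 0 were above both controls in all knockout libraries and 2 were below, and their median log2 fold change was -0.22. Adam12, a metalloprotease that can cut IGFBP-3 and IGFBP-5, had 34.7 and 18.9 TPM in the controls, against 11.5, 8.98 and 5.24 TPM in knockout mice 1, 2 and 3 (a log2 fold change of -1.54, limma adjusted p 0.198). All 3 knockout libraries were below both controls, as they were for Adam28, a related metalloprotease at 0.96 to 1.83 TPM over the 5 libraries.

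In the list of 23 genes of receptor signalling, 7 were above both controls in all 3 knockout libraries and 1 below, with a median log2 fold change of 0.16. In knockout mice 2 and 3, 18 of the 23 lay above both controls in each, and in knockout mouse 1 there were 9. Over all tested genes, 9164 and 7893 of 19292 lay above both controls in knockout mice 2 and 3 and 4020 in mouse 1. Grb14, an adaptor that inhibits the insulin receptor, had 7.64 and 16.6 TPM in the controls, against 25.0, 97.5 and 71.7 TPM in knockout mice 1, 2 and 3 (a log2 fold change of 2.21, limma adjusted p 0.214). Like Igf2, it was above both controls in all 3 and by most in mice 2 and 3, where the epithelial sum was high, whose part in this was not tested. Pdpk1, the kinase that activates AKT, had a log2 fold change of 0.63 (limma, adjusted p 0.374). Grb10, an imprinted adaptor that inhibits signalling of the insulin and IGF-I receptors, had 104 and 98.1 TPM in the controls, against 83.3, 77.5 and 73.3 TPM in the knockout libraries (a log2 fold change of -0.37, limma adjusted p 0.363). The knockout libraries were all below both controls.

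**Figure D5:**
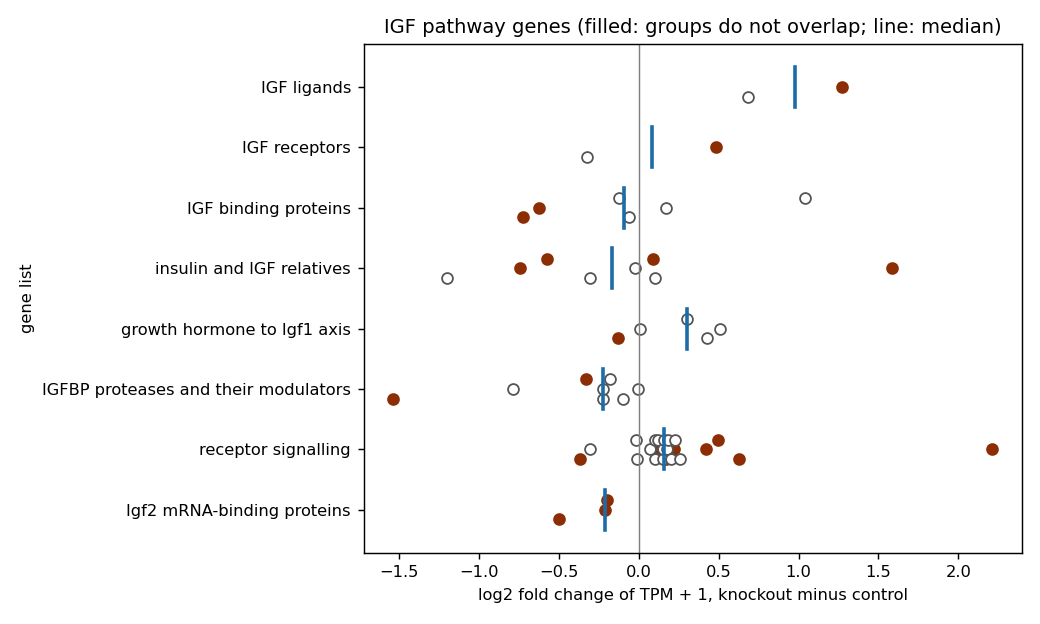
Log2 fold change of TPM + 1 (knockout minus control) of each tested gene in the IGF groups and the 5 pathway lists, filled where the groups do not overlap, with the median of each list as a line. Grb14 at 2.21 and H19 at 1.58 lie farthest to the right, and Adam12 at -1.54 farthest to the left.

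Among the 9 relatives of insulin and the IGFs, Insr, the gene of the insulin receptor, differed little, with 35.0 and 38.5 TPM in the controls, against 39.1, 38.9 and 39.6 TPM in knockout mice 1, 2 and 3 (a log2 fold change of 0.091, limma, 95% interval -0.27 to 0.45). In TPM, all 3 knockout libraries were above both controls, by a small margin. The transcript Rpph1 alone was at 185822 and 213460 TPM in the controls, against 223129, 143307 and 131222 TPM in knockout mice 1, 2 and 3. The order of the Insr values depends on that share. Relative to the TPM outside Rpph1, Insr in knockout mice 2 and 3 lay between the controls. Igfbp1, a binding protein best known from liver and decidua, stayed under 1 TPM in every library and was not tested. Igfals, the liver gene of the acid-labile subunit, was at 0.766 to 2.63 TPM. Of the 5 genes from growth hormone to Igf1, 0 were above both controls in all knockout libraries and 1 was below, with a list median of 0.30. That gene was Jak2, the kinase of the growth hormone receptor, at a log2 fold change of -0.13 (limma, adjusted p 0.709). In TPM, the 3 Igf2 mRNA-binding proteins were below both controls in all 3 knockout libraries. Over all tested genes, 11.9% lay above and 21.9% below both controls in this way. For Igf2bp2 the margin was small, with 16.6 TPM in knockout mouse 1 against 17.1 TPM in both controls. Relative to the TPM outside Rpph1, Igf2bp2 in knockout mouse 1 lay between the controls. The least changed of the 3 was at 0.846 to 1.19 TPM. Igf2bp2 had a log2 fold change of -0.21 (limma, adjusted p 0.605) and Igf2bp1, at 0.505 to 1.52 TPM, one of -0.50 (limma, adjusted p 0.466).

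Genes whose pattern over the 5 libraries was nearest to that of Igf1 and Igf1r were sought among 6991 genes with a mean of at least 20 TPM, by the root mean square difference of log2(TPM + 1) after centring. Nearest to Igf1 were Col6a6, Aqp1 and Dio3os, at 0.22, 0.24 and 0.25. Each was highest in knockout mouse 1, where Col6a6 was at 92.1 TPM against 27.7 to 42.4 TPM elsewhere. Nearest to Igf1r were Gins4, Ubl3 and Trp53inp1, at 0.026, 0.031 and 0.040, each above both controls in all 3 knockout libraries. That these genes share such features with Igf1 or Igf1r follows from their choice by likeness.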

How the data were processed

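Per the labels, total RNA of the sorted cells was made into libraries with a low-input SMARTer v4 mRNA kit. The authors deposited TPM per gene, which sum to 1000000 in each library. The table's name gives STAR as the aligner, and mm10 is the build per the submitters' processing notes. The version, counter, annotation and read filters are not given in the sources used here.

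Log2(TPM + 1) values were fitted by limma 3.58.1 under R 4.3.3 (lmFit and eBayes with trend) over all genes with at least 1 TPM in at least 2 libraries, with genotype as the only term. P-values were two-sided and Benjamini-Hochberg adjusted over all 19292 tested genes, with a threshold of 0.05. The fit was run on simulated data with independent noise and either no planted change or changes larger than that of any member. Those runs do not show how the fit fares at changes of the members' size. Exact permutation tests used the 10 assignments of the 5 libraries. The libraries are separate mice by their labels.

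TPM keeps no total depth. Relative depth and reads per gene were estimated from the steps between low values and are approximate. Positions come from GENCODE M21 on GRCm38 (mm10), whose symbols matched 96.6% of those listed, and upstream sequences from RefSeq. Python 3.11.15 was used.

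The members, gene lists and the rule for naming genes were chosen with earlier results of these data known. Named are the 10 members, Esr1, list genes past the threshold, in each list up to 2 with the highest and 2 with the lowest fold change among those without overlap, and the 3 genes nearest to Igf1 and to Igf1r. Marker genes are named as checks of the sorted cells. Alternatives covered the pseudocount (0.1), filters, scaling, the variance model, library weights, a block by mouse number and leaving out each library.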

Additional observations from a re-analysis of the deposited data

How the results depend on the processing

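The count of IGF members past an adjusted p of 0.05 was 0 with a pseudocount of 0.1, no filter, a mean TPM of at least 5, median-of-ratios scaling, Rpph1 and Rn45s left out, and eBayes without trend. It was 1 with library weights (Igf2, adjusted p 0.0393), where 656 of all genes tested (3.40%) were called, and ranged from 0 to 2 over the 5 fits without 1 library each, with 2 (Igf2 and Igf1r) without knockout mouse 1, where 1524 genes (7.98%) were called. With all 5 libraries 5 genes were called. In fits without a control mouse, the lone control is assumed to vary like the knockout mice.

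With the mouse number as a replicate block it was 4 (Igf2, Igf1r, Igfbp3 and Igfbp6), with 1858 of 19292 genes (9.63%) called. Mouse 1 has no partner in that fit. Across 19292 genes, same-numbered mice had deviations from their group means that correlated at -0.060 (mouse 2) and -0.072 (mouse 3). With 2 controls, their deviations mirror each other, so these are not 2 separate checks. The labels state no pairing by number, and a shared origin of same-numbered mice was not tested.

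Of the 10 members, 8 kept their direction in all 13 alternatives. Over the fits without 1 library, Igfbp2 ranged from -0.055 to 0.39 and Igfbp7 from -0.17 to 0.092, Esr1 from -0.68 to 0.57 and Pdgfra from -0.074 to 0.35. Esr1 was 0.15 with library weights and 0.57 with the replicate block, and Pdgfra -0.074 with the block. The block values equal those without knockout mouse 1, since that mouse has no partner in the block. The cause of the other changes was not tested. Depth limits Igfbp2 most, and the number of libraries, 2 against 3, limits every comparison.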
